A study of Mus musculus with 4 samples.

Results

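CTCF peaks in the mouse testis that lie outside every protein-coding gene, and over 200 kb from the nearest end of one, numbered 1807 of the 51871 peaks in the deposited list. They made up 3.59% of the 50267 autosomal peaks. The members were chosen by position alone, from the peak summit and the RefSeq protein-coding genes of the mm10 build, so their enrichment, width and spacing were not used in the choice. The series holds 2 CTCF immunoprecipitated (IP) samples and 2 input samples from testes of F1 mice of a B6xCAST cross, so every sample carries both parental genomes, and no age was given. The tissue was frozen testis and the labels name no sorting, so all its cell types share each value. All values come from 1 merged peak list with none per sample. No spread between animals can therefore be given, and the total read depth is unknown.

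CTCF is a zinc-finger protein that binds a long DNA motif and stops the cohesin complex as it extrudes chromatin loops, so its sites often mark loop anchors and domain borders. Wide gene-poor regions of mammalian genomes, called gene deserts, often lie next to genes for developmental regulators and neuronal adhesion proteins. They can hold distant enhancers and noncoding RNA genes. In meiotic prophase the loops are anchored to the chromosome axis, and the series title is about CTCF in that anchoring.

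Far from coding genes did not mean far from every annotated gene. When distance was taken to any RefSeq gene, noncoding RNA genes and pseudogenes included, 110 peaks were still over 200 kb away. The summit lay inside a noncoding gene or gene segment for 438 of the far peaks (24.2%), and for 290 of them this was a long noncoding RNA (lncRNA) gene. Another 124 of the 438, or 6.86% of all far peaks, lay inside antigen receptor loci, whose gene segments RefSeq does not class as protein-coding. The label "intergenic" thus holds for protein-coding genes. Outside antigen receptor loci and all noncoding genes were 1369 members. The distance to the nearest coding gene was at least 200.1 kb by the rule, with a median of 339 kb, a 75th percentile of 509 kb and a maximum of 2188 kb.

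Sequence was at hand where a summit fell inside the RefSeq promoter window of a gene, which covers 250 bases before and 50 bases after its start on GRCm38.p6, the assembly of mm10. This was so for 13 far peaks, each in the window of 1 lncRNA gene. The 4 windows below show DNA under some of these peaks, those of the 3 highest folds and that of Mir100hg, the host gene of a microRNA cluster. Mir100hg was picked out of the order of fold. Each is given 5′ to 3′ on the strand of its gene. Capitals mark matches, on either strand, to a form of the CTCF core spelled CCA, any 2 bases, AG, any 2 bases, GGC. Where it was absent they mark a looser form, CC, any 3 bases, AG, any 2 bases, GG. It was chosen after the sequences were seen, and every full match also holds it. Such matches were in 4 of the 13 windows, so the windows shown are richer in them. Windows of higher fold than Mir100hg without a match, such as Gm32243 with a fold of 8.14, are not shown.
Gm46796: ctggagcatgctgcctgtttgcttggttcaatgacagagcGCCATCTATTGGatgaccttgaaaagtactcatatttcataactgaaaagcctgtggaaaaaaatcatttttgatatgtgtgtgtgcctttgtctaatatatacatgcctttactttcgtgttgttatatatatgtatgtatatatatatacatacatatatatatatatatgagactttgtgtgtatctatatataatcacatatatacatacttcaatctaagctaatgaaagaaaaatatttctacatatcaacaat
4930471G24Rik: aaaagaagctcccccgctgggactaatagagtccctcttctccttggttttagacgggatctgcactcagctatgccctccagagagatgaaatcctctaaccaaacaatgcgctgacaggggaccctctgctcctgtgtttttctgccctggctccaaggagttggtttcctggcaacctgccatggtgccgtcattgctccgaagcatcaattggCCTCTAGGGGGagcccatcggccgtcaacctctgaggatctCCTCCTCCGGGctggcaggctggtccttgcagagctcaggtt
Mir100hg: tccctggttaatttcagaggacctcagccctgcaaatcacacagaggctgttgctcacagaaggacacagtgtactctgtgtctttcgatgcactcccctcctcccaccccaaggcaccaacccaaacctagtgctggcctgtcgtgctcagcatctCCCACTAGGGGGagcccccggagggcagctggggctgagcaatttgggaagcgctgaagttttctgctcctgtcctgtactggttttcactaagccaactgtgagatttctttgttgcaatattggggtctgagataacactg
Gm40159: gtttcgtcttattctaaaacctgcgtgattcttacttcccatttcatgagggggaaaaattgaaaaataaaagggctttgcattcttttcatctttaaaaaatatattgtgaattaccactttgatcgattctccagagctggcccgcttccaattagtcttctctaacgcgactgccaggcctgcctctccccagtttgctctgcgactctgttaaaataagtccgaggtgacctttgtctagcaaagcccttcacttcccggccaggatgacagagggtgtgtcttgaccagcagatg

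The Gm46796 window (chr3:6106767-6107066, plus strand) held the only full match among the 13. It covered bases 41 to 52 on the minus strand of the window, and the summit was base 48. Its peak had a fold of 10.4, the deposited enrichment at the summit over background. The 4930471G24Rik window (chr13:47667300-47667599, plus strand) had the looser form at bases 218 to 228 and, on the minus strand, at bases 259 to 269, with the summit at base 227 and a fold of 11.2. At Mir100hg (chr9:41474643-41474942, plus strand) matches began at bases 158 and 159 on opposite strands and overlapped, with the summit at base 174 and a fold of 6.64. The window of Gm40159 (chr3:143379390-143379689, minus strand) held neither form, although its peak had the highest fold of the 13, 12.2. Its summit lay at base 282, near the edge of the window. Each of the peaks shown ran past the ends of its window, so part of each was outside the letters shown.

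The full form was found in 1 of 13 windows with a far summit (7.69%) and in 54 of 183 windows with a nearer intergenic summit (29.5%). It was found in 314 of 4204 windows with any autosomal summit (7.47%), in 462 of 27192 windows with none (1.70%), and in 776 of all 31396 autosomal windows (2.47%). In windows with any summit and the full form, the middle of the nearest match lay a median of 16.5 bp from the summit. The looser form was in 4 of the 13 windows with a far summit (30.8%), in 57.9% of those with a nearer intergenic summit, in 42.3% of those with any summit and in 24.3% of all windows. A shorter string, AGNNGGC, also chosen after the data were seen, was in 11 of the 13 (84.6%), in 75.4% of windows with a nearer summit, in 78.8% of those with any summit and in 59.7% of all windows. The 13 windows are of lncRNA genes, while all windows include those of coding genes. In the 11312 windows of genes that are not protein-coding, the full form was in 2.61%, the looser form in 19.1% and AGNNGGC in 52.2%. These are descriptions of letters in windows, and 13 windows are too few to set a share.

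Far ground carried few CTCF sites. The autosomes had 459 Mb of ground over 200 kb from coding genes, taken from position 3 Mb of each chromosome up to its last gene or peak, and it held 3.94 summits per Mb. By chromosome, the density was 3.97 ± 0.775 summits per Mb in far ground and 20.5 ± 3.85 per Mb in nearer intergenic ground, over 1 kb and up to 200 kb from a coding gene (SD, n = 19 autosomes). It was lower in far ground on 19 of 19 autosomes, at 0.193 of the nearer density (mean log2 ratio −2.37 ± 0.35, exact two-sided sign-flip test over autosomes, adjusted p = 8.27e-06). The unadjusted p of 3.81e-06 is the smallest that 19 autosomes allow. Such p-values describe the spread between chromosomes of 1 list, not between animals. How much of either ground takes uniquely placed reads, or is unsequenced, was not examined.

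The fall in density with distance was gradual, without a step at 200 kb. It was 35.4 summits per Mb at 1 to 10 kb, 21.8 at 10 to 50 kb, 13.5 at 50 to 100 kb and 8.76 at 100 to 200 kb. Beyond the limit it was 6.09 per Mb at 200 to 300 kb, 4.42 at 300 to 500 kb, 2.70 at 500 to 1000 kb and 1.58 beyond 1000 kb. The last range held 104 peaks in 65.8 Mb. Just inside the limit, at 200.10 and 200.24 kb, were peaks of fold 5.5 on chromosome 12 (summit 20870787) and 3.55 on chromosome 3 (summit 143240990). Just outside it, at 199.82 and 199.78 kb, were peaks of fold 7.61 on chromosome 14 (summit 100485716) and 10.9 on chromosome 12 (summit 7777852).

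**Figure D1:**
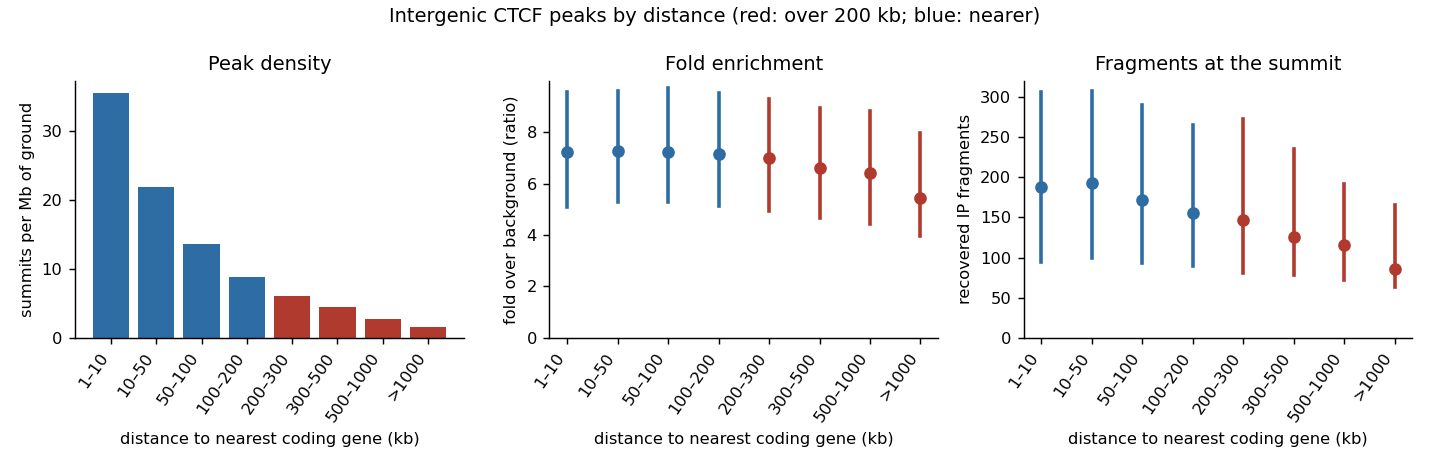
CTCF peaks outside coding genes by distance to the nearest coding gene end in kb, with red for peaks over 200 kb away and blue for nearer ones. The left panel gives summits per Mb of ground, and the others give the median (point) and the 25th to 75th percentiles (line) of fold and of IP fragments at the summit. Density declines from 35.4 per Mb at 1 to 10 kb to 1.58 beyond 1000 kb, and median fragments from 188 to 86.0.

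Far peaks stood apart from other peaks of any class. The nearest other summit of any kind was a median of 47.7 kb away for far peaks and 8.18 kb for nearer intergenic peaks, and 25.7 kb for deep genic peaks, those inside a coding gene but over 200 kb from every coding gene end. Across autosomes the far median was 6.02 times the nearer one, higher on 19 of 19 (mean log2 ratio 2.59 ± 0.71, exact sign-flip test, adjusted p = 8.27e-06). A neighbour within 10 kb was present for 335 far peaks (18.5%) and for 55.7% of nearer peaks. The nearest summit was over 100 kb away for 557 far peaks (30.8%) and for 2.92% of nearer peaks. Spacing follows from density and is not a separate measure of it.

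The signal at far peaks was lower, more so in fragments and significance than in fold. The deposited fold and −log10 p allowed the number of IP fragments at each summit to be recovered as a whole number, on the formulas given with the methods, for 99.35% of all peaks. Far peaks had a median of 128 fragments (25th to 75th percentile 77.0 to 232, n = 1799) and nearer intergenic peaks a median of 184 (96.0 to 302, n = 18787). By chromosome, the median was 128 ± 16.2 fragments for far peaks and 183 ± 9.76 for nearer peaks, lower on 19 of 19 autosomes (ratio 0.695, exact sign-flip test, adjusted p = 8.27e-06). No recovered height exceeded 404 fragments in the whole list, and at least 390 were reached by 17 far peaks (0.945%) and by 2.38% of nearer peaks.

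Fold differed less. Its median was 6.62 for far peaks (whole range 2.12 to 20.7, 75th percentile 9.02), 7.23 for nearer peaks (75th percentile 9.60) and 7.14 for deep genic peaks (75th percentile 9.31). The far median was lower than the nearer one on 16 of 19 autosomes (mean log2 ratio −0.13 ± 0.13, exact sign-flip test, adjusted p = 8.71e-04). The far medians ranged from 5.79 on chromosome 15 to 7.67 on chromosome 14. Set against all other autosomal peaks, whose median was 6.83 and which include the peaks at gene ends, the mean log2 ratio was −0.04 and did not pass the test (exact sign-flip p = 0.153). Folds of 10 or more were found in 317 far peaks (17.5%), in 21.9% of nearer peaks and in 19.6% of all autosomal peaks. This share was lower in far peaks on 15 of 19 autosomes (mean difference −4.23 percentage points, exact sign-flip test, adjusted p = 0.0127). Against all other autosomal peaks the difference of −1.82 percentage points did not pass (exact sign-flip p = 0.213).

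The −log10 q and the width went the same way as the fragments. The median −log10 q was 22.4 for far peaks and 37.0 for nearer peaks, lower on 19 of 19 autosomes (ratio 0.606, exact sign-flip test, adjusted p = 8.27e-06). The median width was 406 bp for far peaks (286 to 715) and 581 bp for nearer peaks (345 to 917), also lower on 19 of 19 (ratio 0.702, exact sign-flip test, adjusted p = 8.27e-06). The recovered local background was at the lowest value in the list, 4.15, for 664 far peaks (36.9%), for 29.5% of nearer peaks and for 29.8% of all autosomal peaks. That share was higher in far peaks on 19 of 19 autosomes (mean difference 6.72 percentage points, exact sign-flip test, adjusted p = 8.27e-06). The shares within ranges of height are given below.

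**Figure D2:**
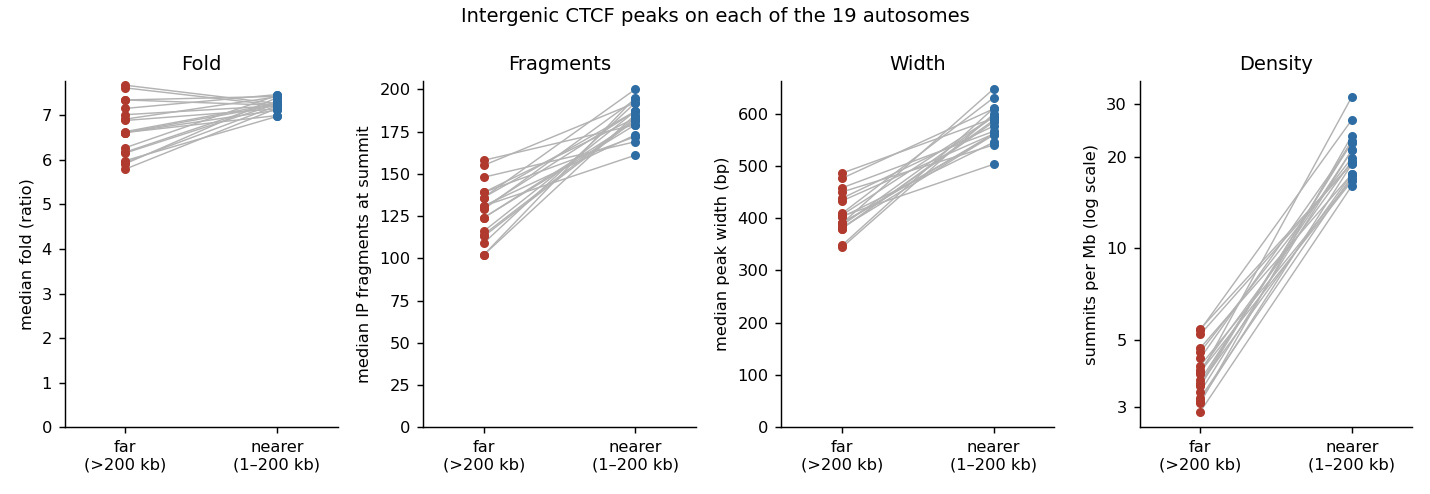
Median fold, median IP fragments at the summit, median width and density (log scale) for far and nearer intergenic peaks, each point 1 autosome and each line joining the values of the same autosome. Far values lie below nearer ones on 16 of 19 autosomes for fold and on 19 of 19 for the other measures.

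Peaks were also split by height into 5 ranges. Since fold and −log10 q are made from height and background, their likeness at equal height is partly given by the formulas. The median width was lower for far peaks in each of the 5 ranges, for example 734 bp for far and 763 bp for nearer peaks of 200 to 300 fragments. The median fold there was 9.56 for far and 10.1 for nearer peaks, while at 300 fragments or more it was 8.03 for far and 7.81 for nearer peaks. Under 75 fragments the background was at the lowest value in 63.4% of far and 71.2% of nearer peaks, the other way round from the whole classes. The classes differed in how many peaks fell in each range. Under 75 fragments were 23.2% of far and 15.7% of nearer peaks, and 14.9% of far and 25.6% of nearer peaks had 300 or more. Height and fold did not rank the far peaks alike. The far peaks of 300 or more fragments had the lower median fold of the last 2 ranges, and their background was at the lowest value in 0.373%. These ranges were set after the values were seen and were not tested.

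Deep genic peaks share the limit of 200 kb from coding gene ends but lie within a transcription unit. They were nearer to gene ends, at a median of 286 kb, against 339 kb for far peaks, so the comparison was not matched for distance. Far peaks had a lower median width than these 718 peaks, 406 against 479 bp, on 13 of 15 autosomes with enough of both (exact sign-flip test, adjusted p = 0.00407). The median −log10 q was 22.4 in far and 30.5 in deep genic peaks, lower on 12 of 15 (mean log2 ratio −0.43 ± 0.55, adjusted p = 0.0144, exact). Median fold was lower on 11 of 15 (mean log2 ratio −0.12 ± 0.20, exact sign-flip p = 0.0402 before and 0.0475 after adjustment). This call was lost when chromosomes with at least 10 peaks entered (mean −0.09, exact sign-flip p = 0.0799, not adjusted). It was also lost with −log10 q of at least 5 (exact p = 0.102), and with a limit of 100 kb both fold (exact p = 0.200) and −log10 q (exact p = 0.0609) missed the threshold. The share with a fold of at least 10 was 17.5% in far and 19.4% in deep genic peaks and did not pass the test (mean difference −2.06 ± 7.66 percentage points, exact adjusted p = 0.314).

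**Figure D3:**
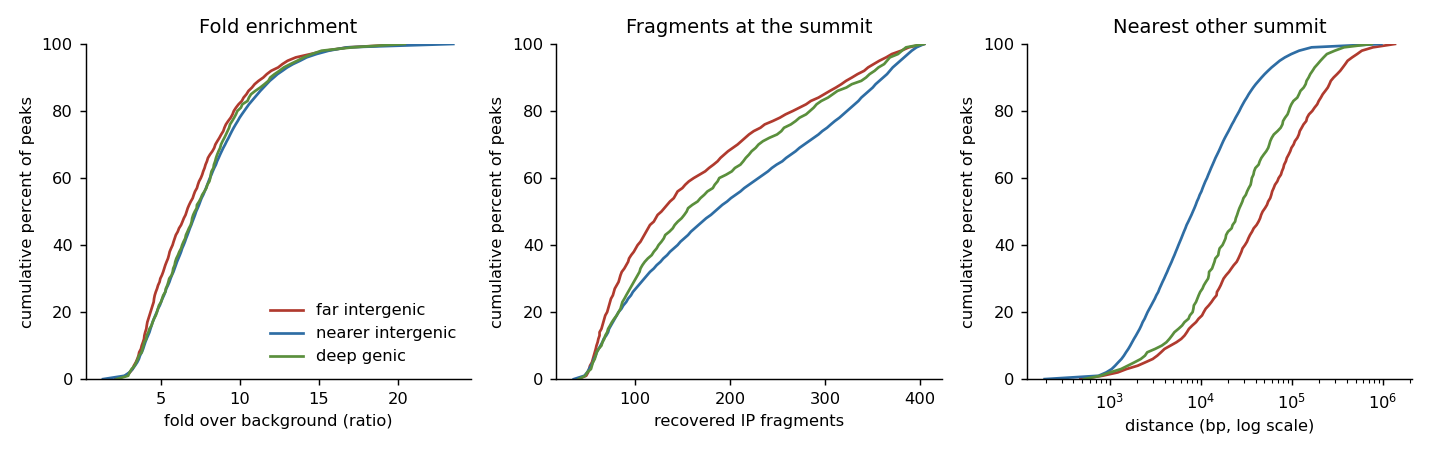
Cumulative percent of far intergenic, nearer intergenic and deep genic peaks by fold, by IP fragments at the summit and by distance to the nearest other summit (log scale). The curves of fold lie close together, with medians of 6.62, 7.23 and 7.14. Those of fragments and spacing lie apart around the median, where the deep genic curve runs between the others, with medians of 128, 184 and 154 fragments. In the lowest 20% of peaks the deep genic and nearer curves of fragments meet.

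The 10 far peaks of highest fold had 274 to 336 fragments over low backgrounds of 4.15 to 4.85, and lay beside genes of several kinds. The highest fold, 20.7, was at a peak on chromosome 3 (50076693 to 50077737), 320 kb from Pcdh18, a protocadherin, and 288 kb from Slc7a11, a cystine and glutamate exchanger. It had 313 fragments and a −log10 q of 102. A peak on chromosome 6 (109150048 to 109151249), also of fold 20.7, had 336 fragments and lay 268 kb from Gm6749 and 1495 kb from Grm7, a metabotropic glutamate receptor. The nearest other summit was 44.0 kb from the first, close to the far median, and 187 kb from the other. On chromosome 2 (123311952 to 123312872) a peak of fold 20.4 lay 503 kb from Sqor, which oxidises sulfide in mitochondria, and 778 kb from Sema6d, a semaphorin. A peak of fold 20.2 on chromosome 6 (31846159 to 31846977) lay 283 kb from Podxl, the sialomucin podocalyxin, and 204 kb from 1700012A03Rik. On chromosome 14 (80268942 to 80269643) a peak with 296 fragments, the next in fold, lay 246 kb from Olfm4 and 4174 kb from Pcdh17, at the Olfm4 end of a stretch of 4.42 Mb.

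Between Med13l, a subunit of the Mediator kinase module, and Tbx3, a T-box transcription factor of limb development, a peak of fold 19.3 on chromosome 5 (119214713 to 119215532) lay almost midway, 450 and 455 kb from their ends. A peak of fold 19.2 on chromosome 12 (22968775 to 22969611) was inside the lncRNA gene 2410018L13Rik. On chromosome 13 (52223429 to 52224230) a peak with 281 fragments, the next in fold, lay between Gadd45g, which is needed for male sex determination in mice, and Diras2, a small GTPase. It was inside the lncRNA gene Gm33041, 989 bp from its end. The last of the 10 were peaks of fold 18.5 between Lrig3 and Atp23 on chromosome 10 (126330483 to 126331150) and 17.8 between Lmo7 and Kctd12 on chromosome 14 (102510283 to 102511075). Of these 10, 7 had the lowest background in the list, as did 36.9% of far peaks with a recovered height. Fold is made from height and background, so a choice by fold itself favours tall peaks over low backgrounds.

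The 5 lowest folds among far peaks ran from 2.12 to 2.40. A peak of fold 2.19 between Npvf and Gm38821 on chromosome 6 (50936445 to 50940639) differed from the other 4. It was 4195 bp wide, the widest far peak, and had 404 fragments over a background of 63.0. The others had 46 to 71 fragments, and the lowest, of fold 2.12, lay between Kif2b and Car10 on chromosome 11 (92405780 to 92406068). Low fold thus covered peaks of very unlike height.

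The 3 peaks farthest from a coding gene lay in the longest stretches. On chromosome 18 (28077833 to 28078129) a peak of fold 4.04 was 2188 kb from Pik3c3, the class III phosphoinositide 3-kinase, and 2323 kb from Celf4, an RNA-binding protein. Its neighbour at 27836981 to 27837239 had 57 fragments and lay 2083 kb from Celf4. The next, on chromosome 14 (90432733 to 90433823), had a fold of 11.1 and 321 fragments and lay 1962 kb from Pcdh20. A tall peak was thus present at this distance too.

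Far ground fell into 731 stretches without coding genes, and 246 of them (33.7%) had no far peak. All but 9 lay between coding genes. These 9 were bordered by a coding gene on 1 side only and held 15 members. A median stretch held 1 member. The 1807 members were unevenly spread, since 100 of the 485 stretches with a member held 50% of them or more. Stretches with more far ground held more members (Spearman's rho of 0.596 across the 731 stretches, a description), yet fewer per Mb. Without the antigen receptor loci, those with 0.2 to 0.5 Mb of far ground held 6.55 members per Mb, those with 1 to 2 Mb held 2.84 and those with over 2 Mb held 1.87. Of the 51 in the last group, 2 had none.

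The stretch with most members was that of the T cell receptor alpha and delta loci, between Gm36448 and Dad1 on chromosome 14 (52541357 to 54235484). It held 57 far peaks, or 44.0 per Mb of far ground, with folds from 3.04 to 17.8 (median 7.81), and 39 of them (68.4%) had a summit within 1 kb of a V segment end. The immunoglobulin heavy chain locus, between Adam6a and Zfp386 on chromosome 12 (113546415 to 116047713), held 44, or 20.9 per Mb. Their folds ran from 2.45 to 16.6 (median 5.82), and 22 of the 44 lay within 1 kb of a V segment end. V segments are the gene pieces that lymphocytes join to make receptors. The stretches held 118 and 121 of them, and how much ground lay within 1 kb of a V segment end was not determined. The counts near V segments therefore do not show whether summits favoured them. The loci differed in density and fold, from values of 1 list with no test.

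Apart from these loci, the most members lay between Gm4868 and Tmem132c, which encodes a transmembrane protein, on chromosome 5 (125849962 to 127241825). Its 0.992 Mb of far ground held 43 peaks, or 43.4 per Mb, between 126063865 and 126995797. Their folds ran from 3.47 to 16.5 (median 8.64) and their heights from 49 to 368 fragments (median 184). The nearest other summit was a median of 7.44 kb away, and 14 of the 43 had a fold of at least 10. The stretch was named for its number of members, so its high density and short spacing partly follow from that choice. Its median fold and height were at or above those of nearer intergenic peaks, 7.23 and 184 fragments. Between Matn1, a cartilage matrix protein, and Ptpru, a receptor tyrosine phosphatase, on chromosome 4 (130955477 to 131768456), 0.413 Mb of far ground held 17 peaks, or 41.2 per Mb, with folds from 2.75 to 15.1. The stretch from Auts2, a chromatin regulator of neuronal development, to Castor2, a gene of the mTORC1 pathway, on chromosome 5 (132543221 to 134099747) also held 17, at 14.7 per Mb, with folds from 4.67 to 14.4.

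The 3 longest stretches all held fewer members per Mb than the 3.94 of far ground as a whole. Against the 1.87 per Mb of stretches with over 2 Mb of far ground, however, Pcdh20 to Pcdh9 (2.90) and Celf4 to Pik3c3 (2.68) held more. Olfm4 to Pcdh17 (0.995) held fewer. Between the protocadherin genes Pcdh20 and Pcdh9 on chromosome 14 (88471397 to 93013699), 4.14 Mb of far ground held 12 peaks, or 2.90 per Mb, with a median fold of 4.27 (2.70 to 11.1). The 4.11 Mb between Celf4 and Pik3c3 on chromosome 18 (25754521 to 30265614) held 11, with a median fold of 4.79 and a highest of 11.6. Between Olfm4 and Pcdh17 on chromosome 14 (80023142 to 84443562), 4.02 Mb held 4 peaks, or 0.995 per Mb, from a fold of 3.26 up to that of the peak near Olfm4 given above. In these 3 stretches the median distance to the nearest other summit was 147, 133 and 535 kb.

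**Figure D4:**
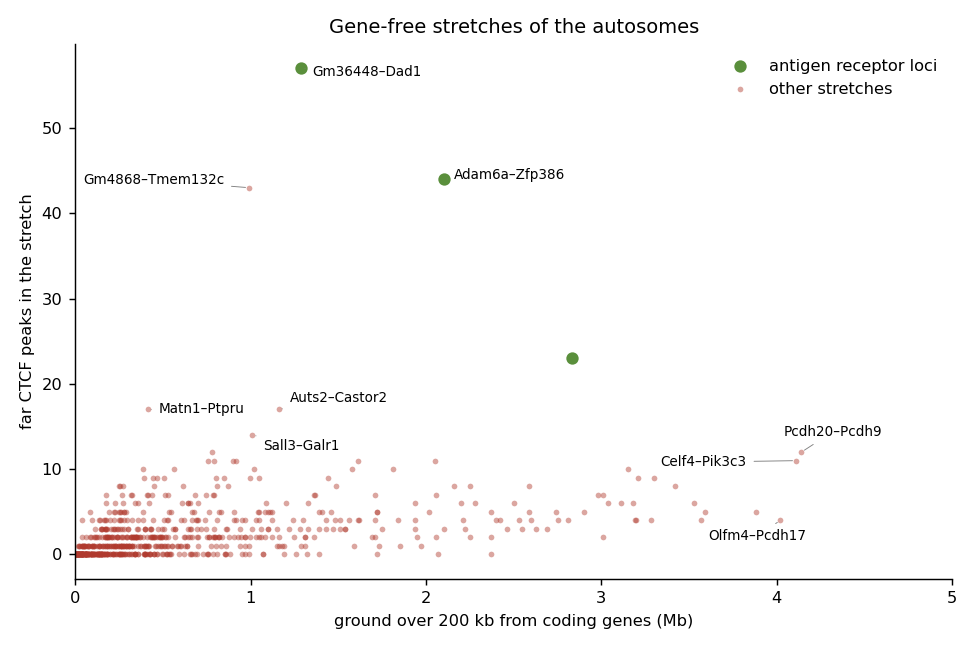
Number of far CTCF peaks in each of the 731 gene-free stretches (points) against the length of ground over 200 kb from coding genes, in Mb, with stretches named by their border genes and antigen receptor loci in green. The 57, 44 and 43 peaks of Gm36448 to Dad1, Adam6a to Zfp386 and Gm4868 to Tmem132c stand above stretches of the same length. Pcdh20 to Pcdh9 holds 12 in 4.14 Mb, the most among stretches with over 2 Mb outside antigen receptor loci.

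Stretches with members were bordered by 874 coding genes, among which some families were frequent. Developmental transcription factors were 66 of these (7.55%), against 1.53% of all autosomal coding genes. Cell adhesion and synaptic organiser genes were 67 (7.67%), against 1.17%, and neuronal channel and receptor genes were 29 (3.32%), against 1.20%. Olfactory and vomeronasal receptor genes were 1 (0.114%), against 7.07%. The families were set by gene symbols, the rule itself selects genes beside long gene-free ground, and no test was made.

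The families differed in how densely their stretches were bound. Without the antigen receptor loci, stretches beside a developmental transcription factor gene held 6.05 far peaks per Mb (279 in 46.1 Mb, median fold 6.96). Stretches beside an adhesion gene held 2.21 per Mb (316 in 143 Mb, median fold 6.07), and those beside a neuronal channel or receptor gene 2.95. Those beside none of the listed genes held 4.27. The 3 stretches beside an olfactory or vomeronasal receptor gene held 16.7 (9 in 0.539 Mb). All 9 of these peaks lay in 1 stretch, beside Olfr161, so that value does not describe the family. The adhesion stretches were longer, 101 of them sharing 143 Mb against 99 sharing 46.1 Mb, and longer stretches held fewer peaks per Mb in general. Its part in the difference was not tested.

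Among transcription factor genes, the most members bordered Sall3, a spalt family factor, with 14 between it and Galr1 on chromosome 18. Bcl11a, a zinc-finger repressor of globin genes, had 10 up to Fancl, and Ebf1, a factor of B cell development, had 9 up to Clint1, both on chromosome 11. The stretches from Med13l to Tbx3 and from Sall1 to Tox3 also held 9 each. Among adhesion genes, Adgrl2, an adhesion receptor of the latrophilin family, had 15 in the stretches on its sides, Cdh9 had 14 and Pcdh9 had 13. The cadherins Cdh6, Cdh9 and Cdh10 are neighbours, with 10 members between the first pair and 4 between the other. Of channels and receptors, the glutamate receptor Grik2 had 8, and the muscarinic receptor Chrm3 and the dopamine receptor Drd1 had 7 each. The stretch from the channel gene Kcna4 to Mettl15 also held 7. The single olfactory gene was Olfr161 on chromosome 16, whose 9 members lay between the start of assembled sequence at 3 Mb and the gene.

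Noncoding gene ends were not favoured by far peaks in the main comparison. A summit lay within 1 kb of such an end for 158 far peaks (8.74%), for 9.06% of nearer peaks and for 7.24% of all autosomal peaks. By chromosome, the shares were 7.07% ± 7.36 for far and 9.15% ± 1.02 for nearer peaks (SD, n = 19 autosomes, exact sign-flip test, adjusted p = 0.246). The antigen receptor stretches held 72 of the 158. Without them, the difference was −4.39 percentage points and passed (exact sign-flip p = 5.72e-05), and for lncRNA genes alone it was −3.20 (exact sign-flip p = 4.39e-04). Of the 5 highest folds at a noncoding end, 4 were at V segments, with folds of 17.8 at Trav9d-2, 16.9 at Trav10, 16.6 at Ighv5-17 and 16.4 at Trav6n-6, and the other was the peak at Gm33041.

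By chromosome, far peaks were most numerous on chromosome 12 with 158, or 7.56% of its peaks, and fewest on chromosome 19 with 25, or 1.64%. Density in far ground was highest on chromosome 7, at 5.42 per Mb, and lowest on chromosome 3, at 2.89 per Mb. The antigen receptor loci gave 44 of the members on chromosome 12, and 57 of the 144 on chromosome 14, whose density was 4.69 per Mb with them and 2.96 without. Chromosome 7 had a median far fold of 6.17 and chromosome 3 of 6.63. Whether fold followed density across the autosomes was not tested.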

How the data were processed

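CTCF ChIP-seq was made from 2 IP and 2 input samples of testis. Per the submitters' processing notes, the tools were BWA 0.7.12 and MACS2 2.2.7 and the build mm10, whose use is not described. The authors deposited 1 merged peak list, whose names carry bio2 and merged, so which IP samples entered it was not settled. Its columns are the authors' own: a fold, the ratio of enrichment at the peak summit, then the −log10 of p and that of q, and a deposited score that was not used. They were compared only within this list.

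Fragments at the summit were recovered on the formulas fold = (w × fragments + 1)/(background + 1) and p = Poisson tail, with w of 0.344 and lowest background of 4.15 estimated from the spacing of the commonest deposited folds and their p-values. Exactly 1 whole number matched the −log10 p within a relative tolerance of 1e-04 for 51536 of 51871 peaks, and 87.0% of backgrounds above the lowest were whole within 0.001. Peaks without a single solution were left out of fragment values. This measure was added after the data were seen, and duplicates and pooling of samples are unknown.

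Coding genes came from the RefSeq table of GRCm38.p6 (20556 autosomal genes, after 105 with a start below 3 Mb, scaffold coordinates, were left out). Coordinates are 1-based. Far peaks were compared with others by exact two-sided sign-flip tests over autosomes with at least 20 peaks of both classes, with Benjamini-Hochberg adjustment over 13 tests. Scripts were tested on simulated data. Python 3.11.15, numpy 2.4.6, pandas 2.3.3 and scipy 1.17.1 were used.

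The members and lists were chosen with earlier results of these data known. Named were the 10 highest and 5 lowest folds, the 3 farthest members, the 5 stretches with most members (a tie gave 1 more, and 1 is not reported here) and the 3 longest, the 5 highest folds at noncoding gene ends, the peaks beside the limit, the extreme chromosomes and, per family, the 3 border genes with most members. Other border genes with as many members were not all named. Alternatives were other distances, gene sets, peak thresholds, comparison peaks and summaries.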

Additional observations from a re-analysis of the deposited data

How the results depend on the processing

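Of 119 alternatives of the 13 tested results, 109 kept direction and side of the 0.05 threshold, 6 lost the call, 4 gained it and none reversed. The p-values of the alternatives were not adjusted, and these calls compare them with the unadjusted p of the main result. Against all other autosomal peaks, the log2 ratio of fold was −0.04 and the difference in the share of strong peaks −1.82 percentage points. Against deep genic peaks, the log2 ratio of fold was −0.09 with −log10 q of at least 5 and also with at least 10 peaks per chromosome, and −0.05 with a limit of 100 kb, where that of −log10 q was −0.18. The difference at noncoding gene ends was −6.26 points with a 2.5 kb window, −3.20 for lncRNA genes alone, −4.39 without antigen receptor stretches and −3.48 without summits inside noncoding genes, the last 2 added after the data were seen. The cause was not tested. The number of far peaks was 3548 with a limit of 100 kb, 472 with 500 kb and 110 with distance to any RefSeq gene, which left too few peaks per chromosome for a test. No paired analysis was possible because the list has no value per sample, and for that reason no replicate was left out.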
